A study of Mus musculus with 8 samples.

Results

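Ephrins, Eph receptors, semaphorins, plexins and neuropilins are the ligands and receptors of 2 guidance systems, and their transcripts were followed here in single mouse hearts at mid-gestation (E10.5). The genes were taken by name. A probe set was included when its only annotated gene symbol began with Epha, Ephb, Efna, Efnb, Sema or Plxn followed by a family letter or digit, or was Nrp1 or Nrp2. This rule, which used no measured value, gave 81 probe sets for 45 genes, out of 22690 probe sets on the array, of which 20393 carried 1 symbol and named 12394 genes. Of these, 54 probe sets for 34 genes were tested, because they were called Present in at least 3 of the 8 hearts.

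Each array held the RNA of 1 heart, from 4 Dbh-/- embryos (KO 1 to KO 4) and 4 Dbh+/+ embryos (WT 1 to WT 4), all at E10.5 and matched for age and size. Dbh codes for dopamine beta-hydroxylase, the enzyme that turns dopamine into noradrenaline, and the comparison asks which transcripts differ when the embryo lacks this gene. The strain and the Dbh allele are not given in the sources used here. The sample titles also carry a number, which is 541 for 2 hearts of each genotype (WT 3 and WT 4, KO 3 and KO 4), 570 for WT 1 and 569 for the remaining 3 (WT 2, KO 1 and KO 2), and whose meaning the labels do not give. A letter in the titles, also unexplained, is L in every heart numbered 541 and R in every heart numbered 569 or 570. Differences between 541 and the rest therefore cannot be told apart from differences between L and R. Hearts of 1 number could share a litter, a day or a dissection, so the tested guidance genes are compared by genotype and by this number.

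Ephrins are cell-surface ligands, and they bind Eph receptor tyrosine kinases on a neighbouring cell, so that a signal can pass into both cells on contact. Semaphorins are secreted or membrane-bound ligands that act through plexins, and most secreted class 3 semaphorins also need a neuropilin to hold the ligand. Both systems steer axons, neural crest cells and vessel sprouts, often by repulsion, and in the embryonic heart they take part in arterial and venous identity, in the endocardial cushions and in the division of the outflow tract.

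The arrays called 65.2% to 71.6% of probe sets Present. Their median MAS5 signal ran from 38.4 (KO 1) to 64.1 (KO 3), so the arrays had no common median. Whether they were scaled to another shared value was not tested. The Dbh probe set was called Absent in all 8 hearts, with signals between 0.222 and 10.9, and therefore checks no genotype label. All 9 cardiomyocyte markers were Present in all 8 hearts, in keeping with the tissue label, with Actc1 (cardiac actin) at 3236 to 5614 and Tnnt2 (cardiac troponin T) at 3640 to 6378. Myh7, a cardiac myosin heavy chain, was at 305.9 in WT 3 and at 2431 to 4836 in the other hearts, and Tnni1 (slow troponin I) ran from 612.1 to 2196. Markers of other tissues differed widely between the hearts. The summed signal of 14 tested markers of neural tissue and neural crest was 2000 in WT 3, 2631 in KO 3 and 2659 in KO 4, and between 225.8 and 636.5 in the other 5 hearts, WT 4 with title number 541 being the lowest. The summed signal of 6 liver and endoderm markers was 6809 in WT 3 and at most 208.4 elsewhere.

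**Figure D1:**
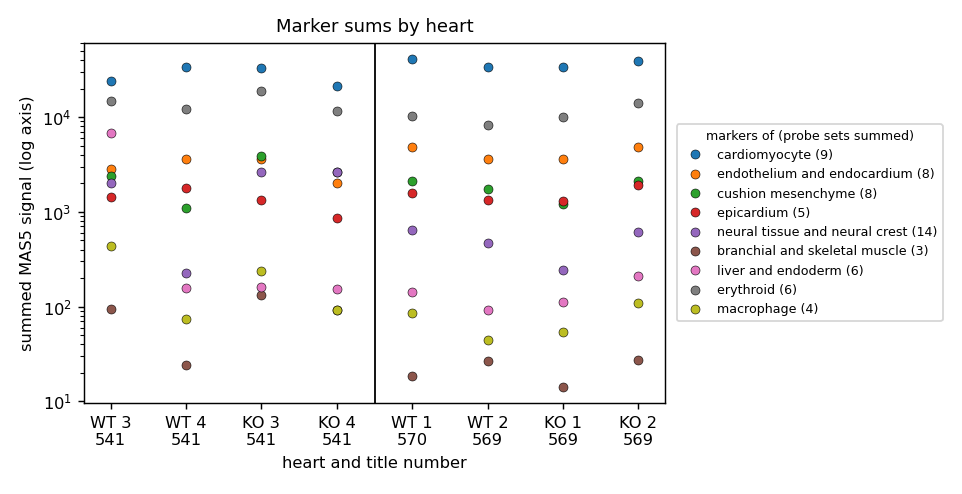
Summed MAS5 signal (vertical, log axis) of the tested markers of 9 cell types in each heart (horizontal, with its title number); each point is 1 sum in 1 heart, and the line parts hearts numbered 541 from the others. Neural and neural crest markers sum to 2000 or more in WT 3, KO 3 and KO 4 and to 636.5 or less in the other 5 hearts, and the cardiomyocyte sum lies between 21410 and 40920 in all 8.

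Detection showed which of the family's members this tissue carried above the array's background. Of the 81 probe sets, 30 (37.0%) were called Present in all 8 hearts and 16 (19.8%) in none, against 57.8% and 17.3% of all 22690 probe sets. At least 1 probe set was Present in every heart for 19 of the 45 genes. The ephrin-B ligands, EphB3, EphB4 and the neuropilins belonged to these genes. For 6 genes (Efna3, Epha6, Epha8, Ephb6, Plxna1 and Plxnb3) every probe set was called other than Present in all hearts. Efna4, Sema4f, Sema5b, Sema6c and Sema7a were Present in too few hearts for the test, which left 11 genes untested. An Absent call shows that a probe set was not above background, and it sets no upper limit on the transcript.

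No guidance gene passed the test between Dbh-/- and Dbh+/+ hearts. None of the 54 tested probe sets passed a Benjamini-Hochberg adjusted p under 0.05 in limma, where 0.0% of all 16292 probe sets passed. At an unadjusted p under 0.05 the count was also 0 of 54, against 1.33% (217) of all probe sets tested. The median difference over the 34 genes was 0.02 on the log2(signal + 16) scale, Dbh-/- minus Dbh+/+, with 19 genes above 0 and 15 below, and it was 0.01 over all probe sets. A difference on this scale understates the change of dim probe sets, because 16 is added to each signal before the logarithm. The signals of the 2 genotypes overlapped for all 54 probe sets, while 0.454% of all probe sets did not overlap. In the authors' deposited table, 1 of the 81 probe sets, a Sema3e probe set (p = 0.0381) that was Present in 2 of 8 hearts and was not tested here, had an unadjusted p under 0.05, against 1.24% of all probe sets in it. Of the 54 tested probe sets 0 did so in the authors' deposited table, against 0.632% of all tested.

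The intervals show how large a difference these hearts could have hidden. They rest in large part on a spread shared by all probe sets and not on each gene's own spread. The weight of that shared spread in limma, its prior degrees of freedom, was 27.37 in this fit and 4.57 after quantile normalization. The 95% confidence interval of the genotype difference reached 0.58 log2 units to either side at the median gene, and between 0.43 and 0.97 over the 34 genes. It lay within 1 log2 unit of 0, a factor of 2 on that scale, for 32 of them, the exceptions being Epha3 and Sema5a. A p above the threshold therefore does not show that a gene was alike in both genotypes. In whole-heart RNA, fewer cells of a type and less RNA per cell cannot be told apart.

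**Figure D2:**
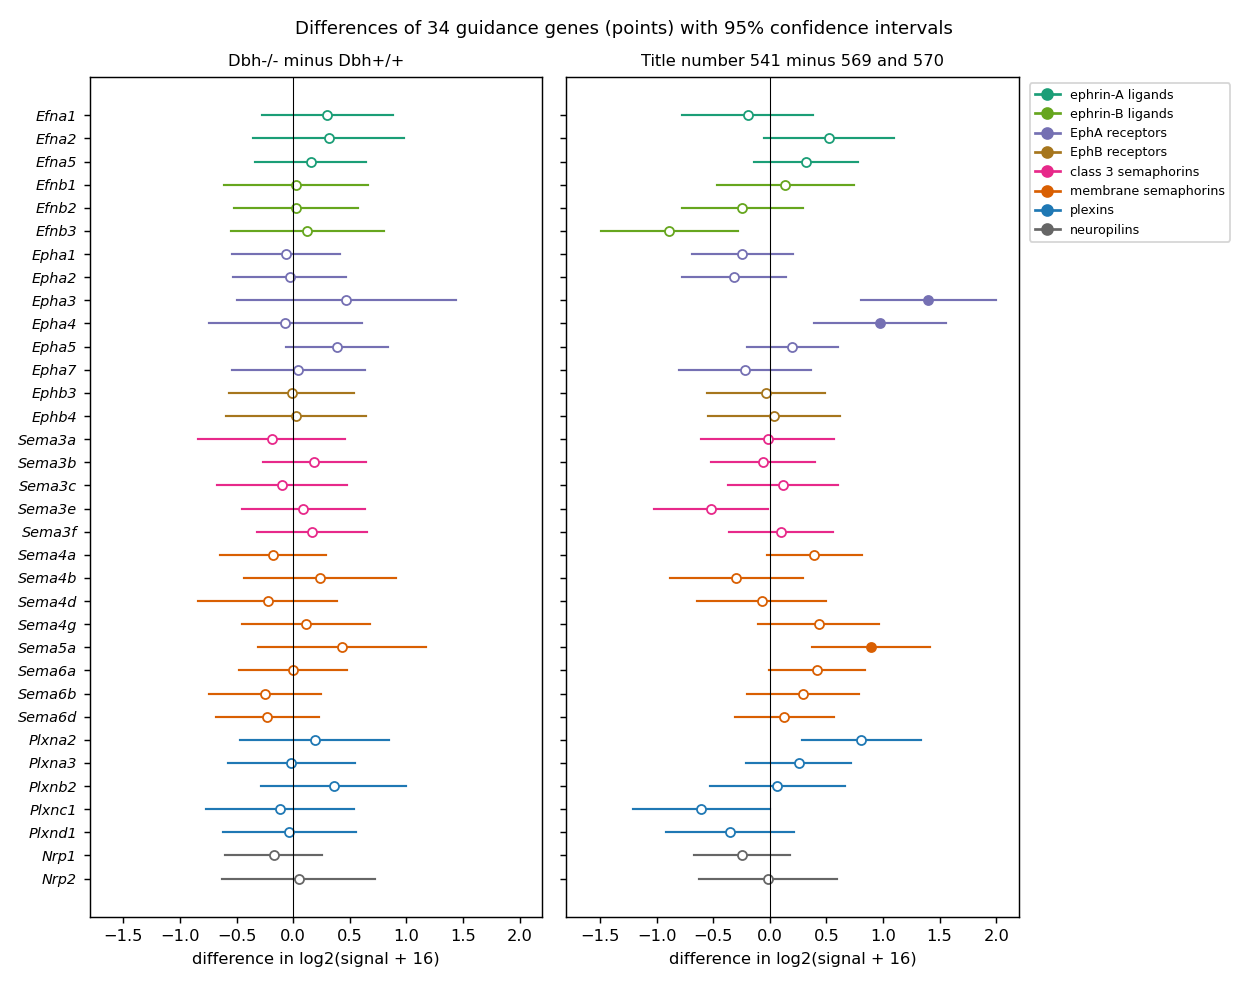
Difference in log2(signal + 16) of 34 guidance genes between genotypes (left) and between title numbers (right), with 95% confidence intervals; filled points passed an adjusted p under 0.05 in limma. All 34 genotype intervals include 0, and Epha3, Epha4 and Sema5a are filled on the right.

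The ephrin-A ligands, which are held to the membrane by a lipid anchor, had 3 tested members of 5, and all 3 differences were above 0 without passing the test. Efna1, a ligand of EphA receptors that is known from cushion and vessel development, had signals of 102.5, 66.1, 52.8 and 63.0 in WT 1 to WT 4 and of 67.0, 114.1, 100.2 and 81.1 in KO 1 to KO 4. WT 3 was the lowest heart and KO 2 the highest, and the genotypes overlapped. Its difference was 0.30 ± 0.28 (SE, n = 4 hearts each; limma adjusted p = 0.99998). Efna2 was raised in a single heart, KO 3, at 199.1, and the other 7 hearts lay between 39.5 and 100.3 (difference 0.31 ± 0.33).

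The ephrin-B ligands span the membrane and can themselves signal inward. Efnb2, the ligand that marks arterial endothelium, had signals of 1282, 704.7, 718.3 and 784.9 in the WT hearts and 722.6, 1134, 928.1 and 715.5 in the KO hearts. One heart of each genotype, WT 1 and KO 2, stood above the rest, and the ranges overlapped almost fully. The difference of 0.02 ± 0.27 changed sign between the 3 tested probe sets of the gene, from -0.11 to 0.02. Efnb1, which is expressed in cushion mesenchyme and neural crest, differed by 0.03 ± 0.31, and by -0.09 and -0.19 at its other probe sets. Of 12 genes with several tested probe sets, 7 had genotype differences of both signs. Efnb3, a ligand best known from the nervous system, differed by 0.12 ± 0.33 between genotypes.

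Among the Eph receptors, 6 EphA and 2 EphB genes were tested. Ephb4, the receptor that marks venous endothelium and binds ephrin-B2, had signals of 87.2, 93.2, 102.4 and 63.8 in the WT hearts and 59.5, 107.5, 153.5 and 56.0 in the KO hearts. KO 3 was the highest heart and KO 4 the lowest, so that the KO range enclosed the WT range. The difference was 0.02 ± 0.30 for Ephb4 and -0.01 ± 0.27 for Ephb3, another receptor of ephrin-B ligands. Epha5, a receptor best known from neurons, had the smallest genotype p of all members in limma (0.0906 unadjusted). Its difference was 0.39 ± 0.22 (limma adjusted p = 0.99998). Its signals were 0.489, 5.74, 0.336 and 7.08 in the WT hearts and 9.39, 3.32, 23.7 and 4.24 in the KO hearts, dim values that overlapped. This probe set was called Present in 1 WT heart and 2 KO hearts. The other Epha5 probe set, Present in 1 heart and not tested, went the other way. Its mean signal was 5.77 in the WT hearts and 2.51 in the KO hearts. Epha3, a receptor of ephrin-A ligands known for its part in the atrioventricular cushions, had the largest genotype difference, 0.47 ± 0.48, and the widest interval, from -0.50 to 1.43. Leaving out 1 heart moved it between 0.06 (without WT 4) and 1.13 (without WT 3, limma adjusted p = 0.110), and to 0.0687 without KO 3, 0.19 without KO 4, 0.31 without WT 2, 0.76 without KO 2 and 0.85 without KO 1.

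The class 3 semaphorins had all 5 of their genes tested, and none passed between genotypes. Sema3c, a ligand that attracts cardiac neural crest cells toward the outflow tract, had signals of 35.3, 37.4, 15.4 and 20.3 in the WT hearts and 2.93, 28.4, 40.2 and 34 in the KO hearts. The call was Absent in KO 1 alone, the lowest of the 8 hearts, and the other KO hearts lay within or just above the WT range. The difference was -0.10 ± 0.28 (limma adjusted p = 0.99998). Sema3a, a repellent of axons that also patterns the sympathetic nerves of the heart, was at 488.8, 491.5, 516.4 and 209.0 in the WT hearts and at 234.2, 361.8, 530.3 and 333.8 in the KO hearts. WT 4 stood below the other WT hearts, and 3 KO hearts lay in the gap, with KO 3 above every WT heart. Its difference of -0.19 ± 0.32 went with 0.07 and -0.07 at the gene's other probe sets.

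Sema3b, a semaphorin that binds neuropilins, split the genotypes by detection call but not by signal. One of its probe sets was called Present in 4 of 4 KO hearts and in 0 of 4 WT hearts, a split that 11 of 22690 probe sets (0.0485%) showed in either direction. Its signals were 10.8, 18.7, 12.9 and 22.7 in WT 1 to WT 4 and 21.8, 25.9, 18.9 and 15.6 in KO 1 to KO 4. WT 4 lay above KO 1, KO 3 and KO 4, so the signals overlapped, and the difference was 0.19 ± 0.22 (limma adjusted p = 0.99998). The other Sema3b probe sets were Present in 2 KO hearts and in 1 WT heart, and were not tested. Sema3e, a ligand that binds plexin D1 without a neuropilin, differed by 0.09 ± 0.27 and by -0.13 at its other tested probe set. Sema3f, a ligand of neuropilin 2, differed by 0.17 ± 0.24, and its tested probe set was Present in 3 KO hearts and 0 WT hearts. The tested probe sets of Sema3b and Sema3f passed the filter on detection calls through KO hearts alone. The count of genes above 0 between genotypes therefore leans toward KO hearts.

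Of the membrane semaphorins, 8 of 12 genes were tested, with genotype differences from -0.25 (Sema6b, a semaphorin that spans the membrane) to 0.43 (Sema5a, and between 0.0409 without KO 3 and 0.81 without WT 3). Sema4d, a ligand of plexin B1, had signals of 645.9, 432.7, 428.3 and 930.7 in the WT hearts and 436.5, 732.1, 501.4 and 364.5 in the KO hearts. WT 4 was the highest heart and the genotypes overlapped (difference -0.23 ± 0.30). Sema6d, which acts through plexin A1 in the cushions and myocardium of the chick, differed by -0.23 ± 0.23, with Present calls in 5 of 8 hearts. Plxna1 itself, its receptor, was called Present in no heart. Sema6a, a ligand of A-type plexins, differed by less than 0.01 log2 units at 1 probe set (-0.0014 ± 0.23) and by -0.08 at the other. That other probe set was Present in 3 WT hearts and 0 KO hearts, and so passed the filter through WT hearts alone.

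Plexins are the receptors that carry the semaphorin signal across the membrane, and 5 of 7 were tested. Plxnd1, the plexin of endothelium that is needed for outflow tract and vessel patterning, had signals of 70.7, 81.4, 36.7 and 78.2 in the WT hearts and 50.7, 100.1, 66.2 and 44.0 in the KO hearts. WT 3 was the lowest and KO 2 the highest, and the difference was -0.03 ± 0.29. Plxnb2, a receptor of class 4 semaphorins, was at 122.3, 124.4, 126.0 and 56.5 in the WT hearts and at 90.4, 128.5, 224.2 and 129.4 in the KO hearts. WT 4 was the lowest heart of all and KO 3 the highest (difference 0.36 ± 0.31). Plxnc1, the receptor of Sema7a, differed by -0.12 ± 0.32.

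Both neuropilins were Present in every heart. Nrp1, which also serves as a co-receptor of vascular endothelial growth factor, had signals of 3231, 3038, 2719 and 2959 in the WT hearts and 2631, 3373, 3052 and 1799 in the KO hearts. KO 4 stood below the other 7 hearts, and KO 2 was the highest. The difference was -0.17 ± 0.21 at this probe set, -0.42 and 0.02 at the others, none of which passed the test. Nrp2, a receptor of class 3 semaphorins found in veins, lymphatics and neural crest, differed by 0.05 ± 0.33.

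At its brighter probe set, Epha4 was higher in all 4 hearts with title number 541 than in any of the 4 numbered 569 or 570. Epha3, at its brightest probe set, was higher in 3 of the 4 hearts numbered 541 and lowest of all in the other, WT 4. With genotype as a covariate, 3 of 54 probe sets passed an adjusted p under 0.05 in limma, 3 higher and 0 lower in hearts numbered 541, against 2.95% of all 16292 probe sets in either direction, 1.83% higher and 1.12% lower. They were probe sets of Epha3, Epha4 and Sema5a. The Sema5a probe set passed the filter on detection calls through hearts numbered 541 alone, as did 4 others of the 54 (of Epha3, Sema4a and Sema6a), and 0 of the 54 passed through the other hearts alone. The count of 3 therefore leans toward the hearts numbered 541 and is read as a description. The median difference over the 34 genes, 541 minus the others, was 0.05, with 18 genes above 0 and 16 below, and it was -0.05 over all probe sets. The signals of the title numbers did not overlap for 4 of the 54 probe sets, of Epha4, Efnb3, Sema3e and Epha7, against 5.17% of all probe sets, a share near the background.

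Epha3 had signals of 407.1 in WT 3, 29.5 in WT 4, 320.7 in KO 3 and 246.9 in KO 4, all numbered 541. In the other hearts it was at 71.1 in WT 1, 60.6 in WT 2, 50.3 in KO 1 and 63.9 in KO 2. In WT 3, KO 3 and KO 4 it was therefore above every other heart, and the remaining one numbered 541, WT 4, was the lowest of all 8, so that the classes overlapped. The difference was 1.40 ± 0.30 (SE, n = 4 hearts each, limma adjusted p = 0.000537), a ratio of 2.63 on the log2(signal + 16) scale. The gene's 2 dimmer probe sets were called Present in WT 3, KO 3 and KO 4 and in no other heart, and neither passed the test (0.27 and 0.31).

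Epha4, a receptor that binds ligands of both ephrin classes and is known from the nervous system, was at 139.8, 106.6, 185.1 and 90.8 in WT 3, WT 4, KO 3 and KO 4. In WT 1, WT 2, KO 1 and KO 2 it was at 65.8, 59.4, 50.7 and 51.6. Every heart numbered 541 was above every other heart, WT 4 included. The difference was 0.97 ± 0.30 (limma adjusted p = 0.0413). The gene's other tested probe set differed by 0.47 without passing, and there the title numbers overlapped. At that probe set WT 1, at 27.05, was above WT 4 (23.81) and KO 4 (17.89).

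Sema5a, a membrane semaphorin with thrombospondin repeats that guides axons, was at 85.6 in WT 3, 9.24 in WT 4, 123.9 in KO 3 and 63.7 in KO 4. It was at 19.4, 33.9, 16.8 and 24.9 in WT 1, WT 2, KO 1 and KO 2. As with Epha3, 3 hearts numbered 541 were the highest and WT 4 was the lowest, and the probe set was called Present in those 3 hearts alone. The difference was 0.90 ± 0.27 (limma adjusted p = 0.0303, and 0.304 with no filter on detection calls). Since the gene was tested only because it was Present in those hearts, this p lends no support to the difference.

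These 3 calls rest on a spread shared by all probe sets, since limma's estimate of the prior degrees of freedom was infinite in the fit of title number, and a probe set's own spread then has no weight. An exact two-sided permutation test over the 70 ways to choose 4 of the 8 hearts was run for these 3 genes alone and without genotype. The exact permutation test gave p = 0.143 for Epha3, 0.0286 for Epha4 and 0.171 for Sema5a. In this exact permutation test p = 0.0286 is the smallest the design allows, and any probe set whose title numbers do not overlap gets it. Such non-overlap was seen in 5.17% of all 16292 probe sets. The 3 genes were picked by the same contrast in the same hearts, so the permutation test lends their differences no independent support. After quantile normalization, with a finite prior, Epha4 passed (adjusted p = 0.0202) and Epha3 (0.143) and Sema5a (0.232) did not. Leaving out 1 heart at a time, Epha3 lost its call without WT 3 (adjusted p = 0.367 in limma) and in no other case. Epha4 kept its call without WT 4 or KO 4 and lost it without any of the other 6 hearts, and Sema5a kept its call without WT 2 or WT 4 alone. With no filter on detection calls none of the 3 genes passed in limma (adjusted p of 0.115, 0.139 and 0.304 for Epha3, Epha4 and Sema5a). Without WT 4 the differences grew to 2.17 for Epha3 and 1.42 for Sema5a.

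Plxna2 and Efnb3 came next without passing. Plxna2, a plexin used by class 3 and class 6 semaphorins that is known from cardiac neural crest cells, was at 54.1, 27, 104.3 and 66.8 in WT 3, WT 4, KO 3 and KO 4 and at 27.7, 41.3, 11 and 31.2 in WT 1, WT 2, KO 1 and KO 2. The same 3 hearts were highest, and WT 4 lay among the others (difference 0.81 ± 0.27, limma adjusted p = 0.0775). Efnb3 went the other way, with 122.9, 125.2, 196.7 and 132.1 in the hearts numbered 541 and 329.7, 246.2, 229.4 and 309.4 in the rest. The classes did not overlap, and the difference was -0.89 ± 0.31 (limma adjusted p = 0.107, and 0.0241 after quantile normalization). Sema3e (-0.52 ± 0.26) and Plxnc1 (-0.60 ± 0.31) were the next lower genes, and Epha2, a receptor of ephrin-A1, stood at -0.32 ± 0.23 and Plxnd1 at -0.35 ± 0.29. On the higher side they were followed by Sema6a (0.41 ± 0.22).

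**Figure D3:**
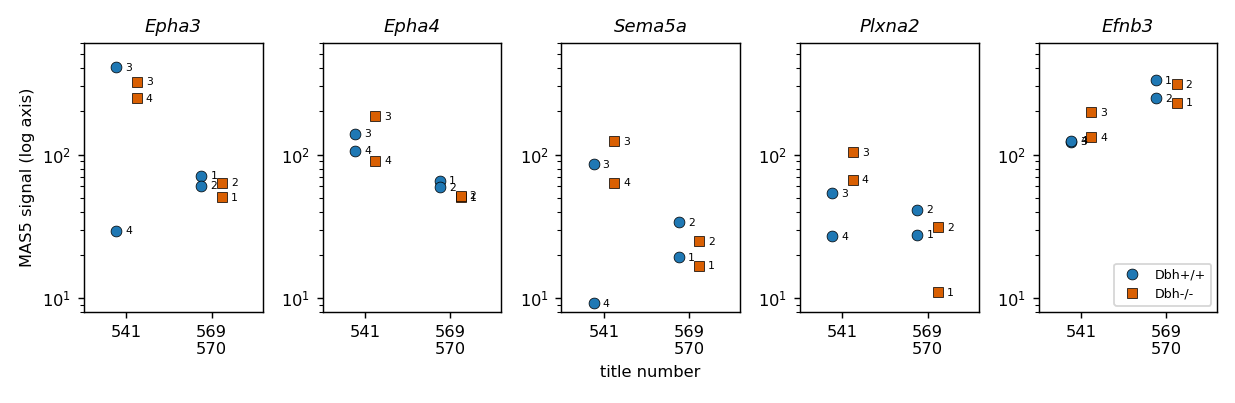
MAS5 signal (vertical, log axis) of Epha3, Epha4, Sema5a, Plxna2 and Efnb3 in each heart, by title number (horizontal); circles are Dbh+/+ and squares Dbh-/- hearts, and the digit beside a point is the heart's number. For Epha3 and Sema5a the heart WT 4 lies below all others, and for Epha4 and Efnb3 the title numbers do not overlap.

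The 3 hearts with high Epha3 and Sema5a were also the highest 3 in summed neural and neural crest markers, though the list was not raised evenly in them. Of the 14 tested markers of that list, 7 were called higher in hearts numbered 541, against 1.83% of all probe sets. With title number 13 differences were above 0, and the median was 0.87. Between genotypes 0 of the 14 passed, but all 14 differences, Dbh-/- minus Dbh+/+, were above 0, with a median of 0.72. Of these, 4 had an unadjusted p under 0.05 in limma. The list holds 16 genes, of which Sox10 and Foxd3, factors that define migrating neural crest, were too seldom Present to be tested, and 2 tested markers (Elavl3 and Tfap2b) passed the filter through hearts numbered 541 alone. Pax3, a factor of dorsal neural tube, neural crest and muscle precursors, was at 203.6, 146.8 and 87.2 in WT 3, KO 3 and KO 4 and at most 22.1 elsewhere. Crabp1, a retinoic acid binding protein of neural crest and hindbrain, was at 1283, 1163 and 1074 in those hearts and at most 156.2 elsewhere. Without Crabp1 the sum was 717.0 in WT 3, 1468 in KO 3 and 1585 in KO 4, against at most 506.4 elsewhere. Markers of neurons were mixed in WT 3, where Tubb3 (10.8) and Elavl4 (26.6) were the lowest of the 8 hearts. In WT 3, Nefl, Nefm and Stmn2 lay within the range of the hearts numbered 569 or 570. Elavl3, at 20.83 in WT 3, was just above all of those hearts, of which WT 2 was the highest at 20.63. Dlx2, another marker of the list, was at 106.5 in WT 3, below WT 1 and KO 2.

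Other marker lists also had members called with title number, where 1.83% of all 16292 probe sets were called higher and 1.12% lower. In cushion mesenchyme 1 of 8 was called higher, Prrx1, a factor of mesenchyme, at 588.1, 11.5, 1063 and 830.5 in WT 3, WT 4, KO 3 and KO 4 and between 30.9 and 160.8 elsewhere. WT 4 was again the lowest heart. Erythroid markers had 3 of 6 called higher (Alas2, Gata1 and Klf1) with a median of 1.11, and macrophage markers 1 of 4 (Csf1r). Of the liver and endoderm markers 4 of 6 were called, but Afp, Hnf4a and Ttr were high in WT 3 alone, at 3396, 912.7 and 1964, and at most 49.1 in any other heart. Foxa2, and Myf5 and Myog among the branchial and skeletal muscle markers (2 of 3 called), passed the filter through hearts numbered 541 alone. Of 9 cardiomyocyte markers 3 were called lower (Myh7, Ryr2 and Tnni1), and 0 of the endothelial and epicardial markers were called. All 9 cardiomyocyte differences with title number were below 0 (median -0.51), as were all 8 endothelial ones (median -0.42). Between genotypes 0 markers of any list passed an adjusted p under 0.05 in limma. Differences were above 0 for 6 of 6 erythroid (median 0.88), 8 of 8 cushion (0.33) and 3 of 3 muscle markers (0.45). The same held for 1 of 6 liver and endoderm, 1 of 8 endothelial and 3 of 9 cardiomyocyte markers. It held for 3 of 5 epicardial and 2 of 4 macrophage markers. The part of these other tissues in the Epha3, Epha4 and Sema5a differences was not tested.

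Promoter windows are shown for the genes that stood highest in hearts numbered 541, to give the sequence just upstream of the 4 with the largest positive differences. Each line is the 100 bases that end at the gene's outermost annotated start, 5′ to 3′ on the gene's strand, from RefSeq (GRCm38.p6), with capitals at matches on either strand to 4 motifs. The GC box was searched as GGGCGG. The box named after its letters CCAAT was searched as such. The TATA box was searched as the letters TATAAA. The E-box was searched in the form CACGTG, and matches may overlap. The windows lie at chr16:63864176-63864275 (minus strand) for Epha3, chr1:77515108-77515207 (minus) for Epha4, chr15:32244713-32244812 (plus) for Sema5a and chr1:194619691-194619790 (plus) for Plxna2.
Epha3: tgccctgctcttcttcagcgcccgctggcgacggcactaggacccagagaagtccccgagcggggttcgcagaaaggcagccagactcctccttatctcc
Epha4: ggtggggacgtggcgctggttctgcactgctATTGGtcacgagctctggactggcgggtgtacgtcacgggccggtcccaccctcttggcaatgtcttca
Sema5a: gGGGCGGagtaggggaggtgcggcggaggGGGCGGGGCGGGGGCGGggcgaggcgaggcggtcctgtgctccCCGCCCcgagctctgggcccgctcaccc
Plxna2: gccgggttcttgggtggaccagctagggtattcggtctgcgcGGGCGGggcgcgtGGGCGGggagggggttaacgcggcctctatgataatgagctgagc

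No motif of these 4 was common to all 4 genes. Over the 250 bases upstream, Epha3 held none of them, Epha4 a CCAAT box and a GC box, and Sema5a and Plxna2 a GC box. The family as a whole had GC-rich upstream windows. Of 40 guidance genes with a window in the table, whether tested on the array or not, 32 (80%) held a GC box. The share was 60.6% of 7403 named genes tested on the array and 33% of all 27025 genes in the table. A TATA box was in 1 window (2.5%, against 6.7% and 13%), a CCAAT box in 11 (27.5%, against 36.2% and 34.5%) and an E-box in 2 (5%, against 8.33% and 6.04%). The median GC content was 64.8%, against 60% and 52%, while the median count of the letter pair CG was 16, against 16 and 6. A match is a description of these letters and not a bound site, and the shares were not tested.

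Genotype differences are also given within each title number, as values with no test. Within 541 (2 hearts of each genotype) 25 of 34 genes were higher in Dbh-/- hearts (73.5%, against 64% of all probe sets tested), with a median of 0.34 against 0.11. Within 569 (2 Dbh-/- hearts and 1 Dbh+/+ heart) 11 of 34 were (32.4%, against 57.7%), with a median of -0.18 against 0.05. WT 4 within 541 and KO 1 within 569 were the arrays with the next lowest and the lowest median signal. Plxna2 differed by 0.86 within 541 and by -0.68 within 569, and Sema3c by 0.65 and -0.88. In a limma fit of genotype by title number, added after the values were seen, 0 of 54 probe sets passed an adjusted p under 0.05, where 0.43% of all probe sets passed, and 6 had an unadjusted p under 0.05, against 3.31% of all. The smallest was that of Sema3c (1.51 ± 0.50, limma adjusted p = 0.324). As in the fit of title number, the prior degrees of freedom were infinite, so a probe set's own spread had no weight in these values. After quantile normalization 0 of 54 passed as well, with 9 at an unadjusted p under 0.05 against 7.16% of all.

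Heart by heart, KO 3 carried the highest level of 16 of the 34 genes as deposited, and KO 1 and WT 4 the lowest level of 9 each. After each array was centred on its median, KO 3 and WT 4 each held 8 of the highest levels, and WT 3 held 8 of the lowest. These counts thus moved with the scaling of the arrays.

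**Figure D4:**
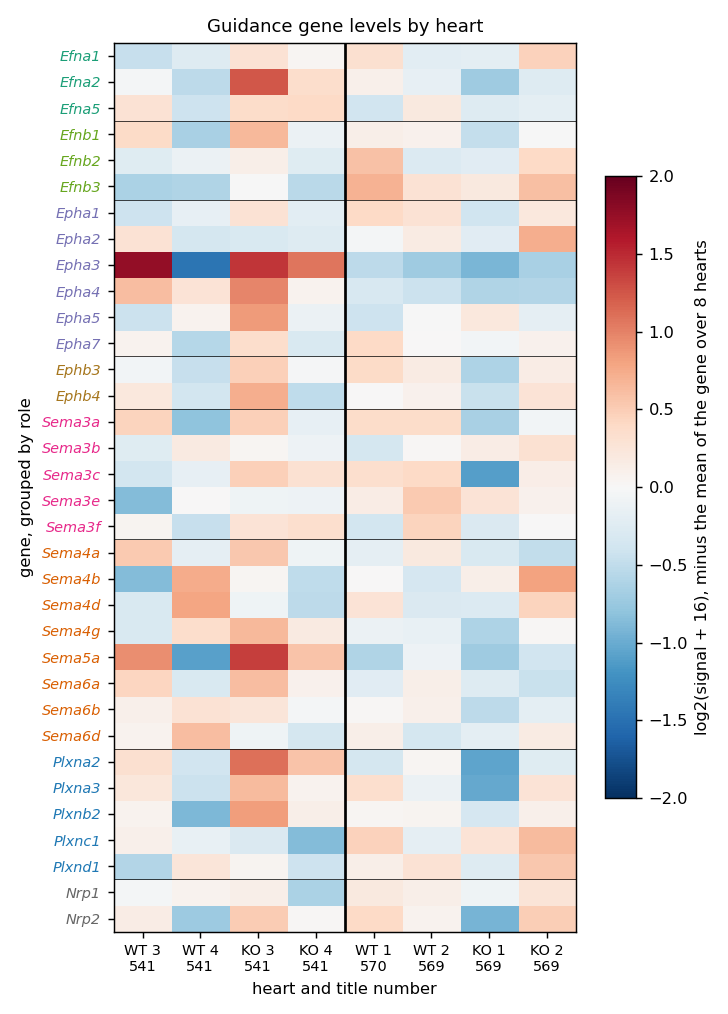
Level of each of the 34 guidance genes (rows, by role) in each heart (columns, with title number), as log2(signal + 16) minus the mean of the gene over the 8 hearts. Epha3, Epha4 and Sema5a lie above their mean (red) in WT 3, KO 3 and KO 4, Epha3 and Sema5a are lowest in WT 4, and the genotypes overlap in every row.

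Other genes of axon guidance, among them Slits and Robos, netrins and their receptors, and enzymes downstream of plexins and Ephs, were looked at by the same test. Of 55 genes listed, 38 were tested, and none passed an adjusted p under 0.05 in limma. The genotype median was 0.01, and 2 genes (5.26%) had an unadjusted p under 0.05, against 1.33% of all probe sets. Ntng1, a membrane-anchored netrin, differed by 0.87 ± 0.31 and Slit2, the ligand of Robo receptors, by 0.64 ± 0.27, both with an adjusted p of 0.99998. With title number 1 of the 38 passed (2.63%, near the 2.95% of all probe sets), which was Dpysl4, a cytoplasmic phosphoprotein of the family that relays semaphorin signals (1.05 ± 0.25, limma adjusted p = 0.00199). Its signals were 51.9, 2.48, 82.3 and 70.8 in WT 3, WT 4, KO 3 and KO 4 and 21.8, 5.70, 4 and 19.9 in WT 1, WT 2, KO 1 and KO 2. The highest hearts were again WT 3, KO 3 and KO 4, and WT 4 was the lowest.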

How the data were processed

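The authors' deposited values are linear MAS5 signal intensity values per probe set, per the file headers, with detection calls from the same deposited export. The MAS5 version, scaling target and build are not given in the sources used here. The authors' deposited p-value and signed fold score (WT over KO, negative where KO is higher) per probe set, and the deposited quality report's fraction of Present calls, Gapdh 5′ to 3′ ratio and background intensity, were read as given. Per the labels, each sample is a separate heart.

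Probe sets with 1 symbol in the platform annotation were named (691 had several symbols and 1606 none). Log2(signal + 16) of the 16292 probe sets Present in at least 3 arrays was fitted with limma 3.58.1 (R 4.3.3; lmFit, eBayes with a trend), without further normalization, for genotype and, with genotype as a covariate, for title number. P-values were adjusted over all 16292 (Benjamini-Hochberg). Each gene is represented by the tested probe set whose mean log2 signal was highest. The scripts were tested on simulated data. The number of arrays limits the precision.

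Genes named are those with a textbook role in heart or vessels, the 2 of each role with the smallest genotype p, the 5 in each direction with the smallest title number p, and any that passed. Members and lists were chosen with earlier results of these data known. Alternatives were other pseudocounts (1 and 64), detection filters, quantile normalization, median centring, the title number as a block, an unequal-variance test and leaving out each heart. Ephb1, Ephb2, Plxna4, Plxnb1 and Sema3d were not analysed here.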

Additional observations from a re-analysis of the deposited data

Results flagged for a closer look

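In 3 of 54 groups of 4 hearts (27 named genes, 2 genotypes) 1 heart lay far from the other 3 by Dixon's test at its 95% level, and chance alone marks about 1 group in 20. Epha2 was at 39.7 in KO 2, above the other KO hearts (ratio 0.916). Plxnb2 was at 56.5 (ratio 0.960) and Sema3a at 209 (ratio 0.938) in WT 4, both below the other WT hearts, and WT 4 had the next lowest median signal of the 8 arrays.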

How the results depend on the processing

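No member was called for genotype under any alternative run, including the title number as a block (0 of 54, with 40 calls over all probe sets), quantile normalization, and leaving out each heart. No paired analysis was possible because the hearts carry no number that pairs them 1 to 1 across genotypes. Besides leaving out a heart, signs of the named genes' genotype differences were compared under quantile normalization, a pseudocount of 1 and the title number as a block. Of these differences 4 changed sign. They were Efnb1 (-0.0019) and Ephb4 (-0.0297) after quantile normalization, and Ephb3 (0.13) and Sema3c (0.0383) with the title number as a block. Signs under the remaining alternatives were not counted. Within title number 541 alone, for example, Sema3a differed by 0.34, against -0.19 over all hearts. Leaving out 1 heart turned the sign of 16 genes. Their lowest and highest values were -0.0496 and 0.60 for Efna2, -0.19 and 0.19 for Efnb1, -0.11 and 0.22 for Efnb2, -0.0629 and 0.38 for Efnb3, -0.28 and 0.067 for Epha2, -0.41 and 0.12 for Epha4, -0.17 and 0.19 for Ephb3, -0.21 and 0.20 for Ephb4, -0.29 and 0.0107 for Nrp1, -0.19 and 0.36 for Nrp2, -0.15 and 0.57 for Plxna2, -0.35 and 0.15 for Plxnc1, -0.24 and 0.0965 for Plxnd1, -0.27 and 0.25 for Sema3c, -0.18 and 0.28 for Sema3e, and -0.21 and 0.15 for Sema6a. For title number, the count of members called was 3, and it was 0 without the filter on detection calls (22626 probe sets tested, 155 called), 2 after quantile normalization (Efnb3 and Epha4), with a pseudocount of 1 or without the covariate, 3 with a pseudocount of 64, and between 0 (without WT 3) and 4 (without WT 4) when 1 heart was left out. It was 1 without WT 1, KO 1 or KO 2. The cause of these changes was not tested. With 4 hearts a group and no common median of the arrays, the 95% interval of the genotype difference reached 0.58 log2 units to either side at the median gene. Probe sets Absent in most hearts carry signal close to background.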
